A study of Arabidopsis thaliana with 3 samples.

Results

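The nuclear genes for the light-harvesting antenna and the photosystem subunits of Arabidopsis thaliana were followed in seedlings carrying 35S:AtIBH1-SRDX and in wild-type seedlings. They were taken by locus: 43 nuclear LHCA, LHCB, PSA and PSB loci of the 25665 loci with a probe on the array, represented by 44 probes. Of these, 21 encode antenna proteins (6 LHCA and 15 LHCB) and 22 encode subunits of the photosystems (12 PSA and 10 PSB). In all, 18 belong to photosystem I and 25 to photosystem II.

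RNA of both genotypes was hybridised together on each of 3 Agilent 2-colour arrays, 1 for each biological replicate that the series' design text states. Both genotypes were in the Col-0 background and were harvested as whole seedlings after 10 days on MS agar with 1% sucrose, at 23 °C with 16 h of light and 8 h of dark. The transgene name joins IBH1, a helix-loop-helix protein known to reduce cell elongation, to SRDX, a short repression domain that is fused to transcription factors to turn them into repressors. The name gives the 35S promoter, which is active in most plant tissues. How many independent lines were pooled or compared could not be read from the labels. On arrays 1 and 3 the transgenic RNA carried Cy3 and the wild-type RNA Cy5, and on array 2 the dyes were the other way round. The labels do not say if the replicates came from separate sowings, harvests or labelling reactions. The p-values therefore rest on the spread between these arrays, partly pooled over all loci, and that spread may be technical.

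Photosystem II extracts electrons from water and photosystem I passes electrons on to ferredoxin, and each is surrounded by chlorophyll-binding antenna proteins that feed light energy to its core. The core of each photosystem is largely encoded in the chloroplast genome, whereas the antenna and many peripheral subunits are encoded in the nucleus and imported. Nuclear photosynthesis genes are switched on in light as leaves form, under regulators such as the GLK and HY5 proteins.

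Each ratio below sets the IBH1-SRDX signal over that of wild type on the log2 scale, after background correction and within-array dye normalization. Ratios are given for arrays 1, 2 and 3 in that order, and then as the fitted mean ± limma's standard error. A locus was called at an adjusted p below 0.05 in limma, with Benjamini-Hochberg adjustment over the 19875 loci tested. A locus was tested if its signal in either genotype cleared background on each of the 3 arrays and at least 2 arrays gave a ratio. Of the 43 genes 40 were tested, 38 of them with a ratio on all 3 arrays and 2 with a ratio on 2 arrays.

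Transcripts of these genes were mostly lower in the IBH1-SRDX seedlings. Of the 40 tested genes 28 were lower, 3 were higher and 9 were not called, against a background of 19.9% lower and 18.6% higher among all tested loci (3949 and 3687 loci). Their median log2 ratio was -0.59, a level 0.664 times that of wild type, and the median of all tested loci was 0.00. On the single arrays the genes' median was -0.57, -0.53 and -0.60, so the dye-swapped array gave nearly the same median as the others. Ratios lay below 0 on every measured array for 31 of the 40 genes, against 33.3% of all tested loci. Most falls were moderate, and 2 genes, LHCB1.4 and PSAN, were at least 2-fold lower (background 2.14%). In whole seedlings, fewer photosynthetic cells and less of these RNAs per cell cannot be told apart. The number of loci called on the whole array depended on the processing, with 2480 higher and 6369 lower in the deposited series table and 1141 higher and 1918 lower with outlying local backgrounds left as deposited, and the genes' own counts were then 2 higher and 31 lower of 42, and 2 higher and 26 lower of 40.

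**Figure D1:**
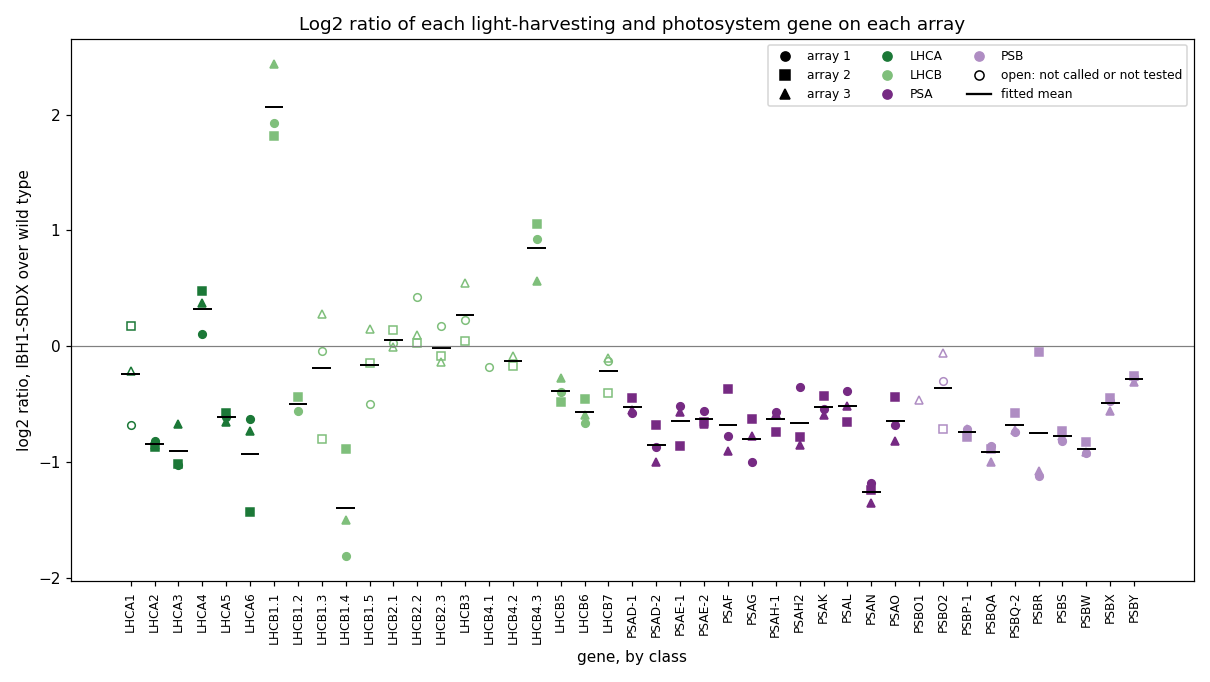
Log2 ratio of IBH1-SRDX over wild type (vertical axis) of each of the 43 genes (horizontal axis, by class) on each array, with filled points for called genes, open points for genes not called or not tested, and a bar at the fitted mean. All PSA and PSB points lie below 0, whereas the LHCB points run from LHCB1.4 at a mean of -1.40 to LHCB1.1 at 2.06.

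The antenna and the subunits differed in how uniform they were. Of 21 tested subunit genes 20 were lower and none was higher, with a median of -0.66 and a range from -1.26 to -0.28. Of 19 tested antenna genes 8 were lower, 3 were higher and 8 were not called, with a median of -0.21 and a range from -1.40 to 2.06. The standard deviation over genes was 0.21 for the subunits and 0.75 for the antenna, or 0.52 for the antenna without the LHCB1 genes. On the single arrays the antenna median exceeded the subunit median by 0.23, 0.25 and 0.60 on the log2 scale, a mean difference of 0.36 ± 0.21 (SD, n = 3 arrays). The direction was the same on all 3 arrays, and without array 3 the difference of the medians was 0.24 against 0.45 with it. No test was made of this or the next differences between classes, since genes of a class are not replicates and an exact sign-flip test over 3 arrays cannot go below p = 0.25.

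The difference lay with the antenna of photosystem II. The LHCB median (-0.16) was above the PSB median (-0.74) on every array, by 0.65, 0.55 and 0.67, a mean of 0.63 ± 0.07 (SD, n = 3 arrays). The classes differed in brightness, however. The LHCB2.1, LHCB2.3, LHCB7 and LHCB1.3 probes lay at the 2.89th, 26.9th, 36.5th and 53.6th percentile of brightness. The dimmest PSA or PSB probe, that of PSAD-2, lay at percentile 88.2. How far dim probes set the LHCB median was not tested. The LHCA median (-0.73), by contrast, was within 0.08 of the PSA median (-0.65) on each array, below it on arrays 1 and 2 and above it on array 3. Within the antenna, the LHCA median was below the LHCB median by a mean log2 difference of -0.58 ± 0.03 (SD, n = 3 arrays).

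Photosystem I as a whole had 16 of 18 genes lower, 1 higher and 1 not called, with a median of -0.65. Photosystem II had 12 of 22 tested genes lower, 2 higher and 8 not called, with a median of -0.37. The photosystem I median was below that of photosystem II by -0.15, -0.21 and -0.39, a mean of -0.25 ± 0.13 (SD, n = 3 arrays), and without array 3 the difference of the medians was -0.14 against -0.28 with it. Among the subunits alone the medians of PSA and PSB were 0.16, 0.06 and 0.00 apart, so the gap between the photosystems came with the LHCB genes. Leaving out the 5 LHCB1 genes, the antenna median was -0.22 and stood above the subunit median by 0.40 ± 0.13 (SD, n = 3 arrays).

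**Figure D2:**
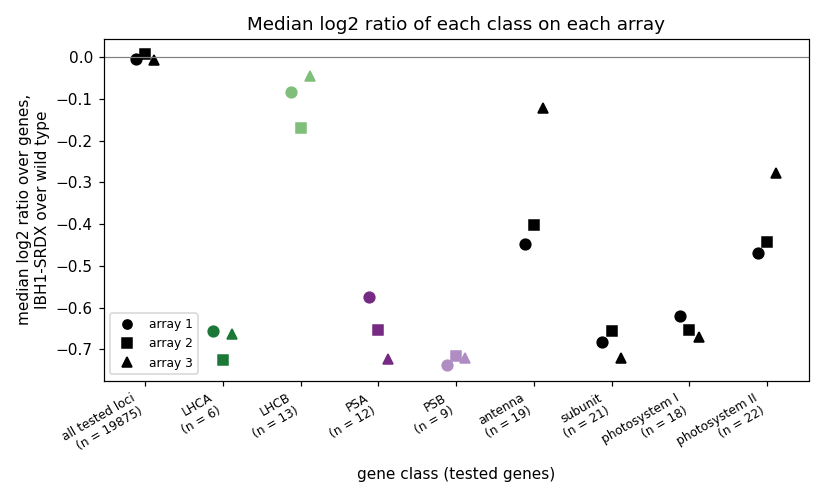
Median log2 ratio of IBH1-SRDX over wild type (vertical axis) over the tested genes of each class (horizontal axis), with 1 point for each array and the number of tested genes under each class. LHCB medians lie between -0.17 and -0.05 on the 3 arrays, and the LHCA, PSA and PSB medians between -0.74 and -0.58.

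In the photosystem I antenna, LHCA1 to LHCA4 form the belt on the side of the core, and LHCA5 and LHCA6 link photosystem I to the chloroplast NDH complex. LHCA2 (AT3G61470) gave -0.82, -0.87 and -0.85, with a mean of -0.85 ± 0.08 (adjusted p = 0.000343), a level 1.80-fold lower. LHCA3 (AT1G61520) gave -1.02, -1.02 and -0.67, with a mean of -0.91 ± 0.10 (adjusted p = 0.000705). Both were lower on every array by amounts well beyond the spread between arrays.

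LHCA5 (AT1G45474) gave -0.61, -0.58 and -0.65 (mean -0.61 ± 0.08, adjusted p = 0.00120). A second LHCA5 probe gave -0.56, -0.40 and -0.54, so its probes had the same direction on every array. LHCA6 (AT1G19150) gave -0.63, -1.43 and -0.74 (mean -0.93 ± 0.16, adjusted p = 0.00396), with its lowest ratio on array 2. Without that array the LHCA6 mean was -0.68.

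LHCA4 (AT3G47470) went the other way. It gave 0.11, 0.47 and 0.37, with a mean of 0.32 ± 0.10 (adjusted p = 0.0366), and its ratio exceeded that of LHCA2 by 1.16 ± 0.22 (SD, n = 3 arrays). The LHCA4 call rested on the full set and on the processing. Without array 2 it gave 0.24 (adjusted p = 0.0886) and without array 3 0.29 (adjusted p = 0.101). In the deposited table of the series LHCA4 gave 0.21 (adjusted p = 0.10). With the outlying local backgrounds left as deposited it gave 0.33 (adjusted p = 0.0754), and with median centring 0.15 (adjusted p = 0.998). LHCA1 (AT3G54890) gave -0.68, 0.18 and -0.21 and was not called (mean -0.24 ± 0.15, adjusted p = 0.260), and its arrays fell on both sides of 0. LHCA1 also hung on single arrays, with a mean of -0.02 without array 1 and a call as lower without array 2 (-0.45, adjusted p = 0.0372).

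The LHCB1, LHCB2 and LHCB3 proteins make up the LHCII trimers, the main antenna of photosystem II. The 5 LHCB1 genes are near copies of each other: LHCB1.1, LHCB1.2 and LHCB1.3 are neighbours on chromosome 1, and LHCB1.4 and LHCB1.5 lie on chromosome 2. Their transcripts are alike enough that a probe may take signal from more than 1 of them. Probe sequences were not used here, so each value belongs to a probe, and which transcripts it reports was not tested.

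The LHCB1.1 (AT1G29920) probe had the largest rise of the 43 genes. Its ratios were 1.92, 1.82 and 2.44, with a mean of 2.06 ± 0.13 (adjusted p = 8.84e-05), a level 4.18-fold higher. Before normalization its signals were 15211, 26330 and 21874 in IBH1-SRDX and 8361, 3198 and 7867 in wild type, so the transgenic signal was above the wild-type signal on each array, with either dye.

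The LHCB1.4 (AT2G34430) probe had the largest fall, with ratios of -1.81, -0.89 and -1.50 and a mean of -1.40 ± 0.16 (adjusted p = 0.000997), a level 2.64-fold lower. The LHCB1.2 (AT1G29910) probe gave -0.56 and -0.44 on arrays 1 and 2 (mean -0.50 ± 0.10, adjusted p = 0.0125). Its spot on array 3 was marked as non-uniform and left out: it read 119 units in IBH1-SRDX and 457 in wild type, where array 1 read 56974 and 196464.

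The remaining LHCB1 probes were not called. LHCB1.3 (AT1G29930) gave -0.04, -0.80 and 0.27 (mean -0.19 ± 0.19, adjusted p = 0.464) and LHCB1.5 (AT2G34420) gave -0.50, -0.14 and 0.15 (mean -0.16 ± 0.13, adjusted p = 0.340), with arrays on both sides of 0 in each. The call of LHCB1.3 hung on 1 array. Without array 3 its mean was -0.42 (adjusted p = 0.0228), and without array 2 it was 0.12 (adjusted p = 0.379). The p-value without array 3 does not measure the gene's own spread, since the arrays left gave -0.04 and -0.80. Standard errors of the tested members were then all between 0.133 and 0.156, mostly from variance pooled over loci. Set against the other LHCB1 probes array by array, LHCB1.1 was higher by between 1.96 and 3.94 on the log2 scale. The mean difference was 3.46 ± 0.66 against LHCB1.4, 2.25 ± 0.33 against LHCB1.3 and 2.23 ± 0.24 against LHCB1.5 (SD, n = 3 arrays), and 2.37 ± 0.16 against LHCB1.2 (n = 2 arrays).

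**Figure D3:**
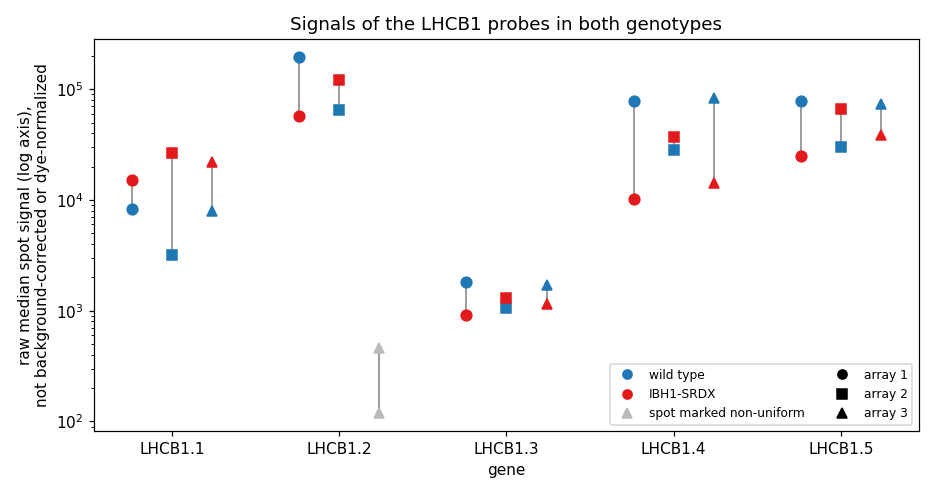
Raw median spot signal (vertical axis, log scale, scanner units, without background correction or dye normalization) of the 5 LHCB1 probes (horizontal axis) in wild type and IBH1-SRDX, with a line joining both signals of an array and grey points for the marked LHCB1.2 spot on array 3. Only LHCB1.1 has the IBH1-SRDX signal above the wild-type signal on all 3 arrays; for the other 4 probes the order of the raw signals turns over on array 2, where the dyes were swapped.

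None of the other LHCII trimer genes was called on the full set of arrays. LHCB3 (AT5G54270), a minor trimer component, gave 0.23, 0.05 and 0.55 (mean 0.27 ± 0.11, adjusted p = 0.0891), above 0 on every array. Without array 2 LHCB3 was called higher (0.39, adjusted p = 0.0297), and without array 3 its mean was 0.14. LHCB2.3 (AT3G27690) gave 0.17, -0.08 and -0.14 (mean -0.02 ± 0.09, adjusted p = 0.910). LHCB2.1 (AT2G05100) gave 0.03, 0.14 and -0.01 (mean 0.05 ± 0.08, adjusted p = 0.623), but its probe was among the dimmest tested, at the 2.89th percentile of brightness, and says little about the level of that transcript. LHCB2.2 (AT2G05070) was not tested, since its signals of 85.5 to 99.0 units were well above background in IBH1-SRDX on 2 arrays and in wild type on none.

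LHCB4, LHCB5 and LHCB6 are the monomeric antenna proteins that sit between the trimers and the photosystem II core. LHCB6 (AT1G15820) gave -0.66, -0.45 and -0.60 (mean -0.57 ± 0.08, adjusted p = 0.00224). LHCB5 (AT4G10340) gave -0.40, -0.48 and -0.28 (mean -0.38 ± 0.08, adjusted p = 0.00998), and without array 1 it was no longer called (-0.38, adjusted p = 0.0668). Both were lower on all 3 arrays.

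The LHCB4 genes gave unlike ratios. LHCB4.3 (AT2G40100) gave 0.92, 1.06 and 0.56 (mean 0.85 ± 0.11, adjusted p = 0.00142), a level 1.80-fold higher, and was above 0 on every array. With median centring LHCB4.3 gave 0.74 and was not called (adjusted p = 0.193). LHCB4.2 (AT3G08940), measured on arrays 2 and 3, gave -0.17 and -0.09 (mean -0.13 ± 0.10, adjusted p = 0.362). On those arrays LHCB4.3 exceeded LHCB4.2 by 1.23 and 0.65. LHCB4.1 (AT5G01530) had a ratio on array 1 only (-0.18), since its spots on arrays 2 and 3 were marked as non-uniform, and it was not tested. LHCB7 (AT1G76570) gave -0.13, -0.40 and -0.10 and was not called (mean -0.21 ± 0.09, adjusted p = 0.111), although every array was below 0. LHCB7 was called lower with a dye term in the fit (-0.26, adjusted p = 0.0221). That fit gives array 2, where LHCB7 was lowest, as much weight as arrays 1 and 3 together. LHCB7 was also called in the deposited series table (-0.37, adjusted p = 0.0398), but not with the ratios written by Agilent Feature Extraction. The median of all loci in the series table was itself -0.15.

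All 12 nuclear photosystem I subunit genes were lower in IBH1-SRDX, each on every array, with means from -1.26 to -0.52 and a standard deviation over genes of 0.20. PSAN (AT5G64040), a lumenal subunit on the side where plastocyanin delivers electrons, had the largest fall. It gave -1.18, -1.24 and -1.36, with a mean of -1.26 ± 0.08 (adjusted p = 9.54e-05), a level 2.40-fold lower. PSAF (AT1G31330), which helps to dock plastocyanin, gave -0.77, -0.37 and -0.90 (mean -0.68 ± 0.11, adjusted p = 0.00421), with its smallest change on array 2.

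On the stromal side PSAD and PSAE form the ferredoxin docking site, and each is encoded by a pair of genes. PSAD-2 (AT1G03130) gave -0.87, -0.68 and -1.0 (mean -0.85 ± 0.09, adjusted p = 0.000664) and PSAD-1 (AT4G02770) gave -0.58, -0.45 and -0.55 (mean -0.53 ± 0.08, adjusted p = 0.00248). PSAD-2 was the lower of the pair on every array, by 0.32 ± 0.11 on the log2 scale (SD, n = 3 arrays). PSAE-1 (AT4G28750) gave -0.51, -0.86 and -0.57 (mean -0.65 ± 0.09, adjusted p = 0.00236) and PSAE-2 (AT2G20260) gave -0.56, -0.65 and -0.67 (mean -0.63 ± 0.08, adjusted p = 0.00120). The PSAE difference of -0.02 ± 0.16 was smaller than its spread. As with LHCB1, probes for close pairs may share signal, and that was not tested.

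PSAH, PSAL and PSAO lie where LHCII can dock onto photosystem I. PSAH-1 (AT3G16140) gave -0.57, -0.74 and -0.58 (mean -0.63 ± 0.08, adjusted p = 0.00136) and PSAH2 (AT1G52230) gave -0.35, -0.78 and -0.85 (mean -0.66 ± 0.11, adjusted p = 0.00440). PSAL (AT4G12800) gave -0.39, -0.66 and -0.52 (mean -0.52 ± 0.09, adjusted p = 0.00383) and PSAO (AT1G08380) gave -0.68, -0.44 and -0.82 (mean -0.64 ± 0.10, adjusted p = 0.00255). These 4 genes had similar falls, and the PSAH pair differed by 0.03 ± 0.24, less than its spread over arrays.

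PSAG and PSAK are membrane subunits at the edge of the core, near the antenna belt. PSAG (AT1G55670) gave -1.0, -0.63 and -0.78 (mean -0.80 ± 0.09, adjusted p = 0.00101) and PSAK (AT1G30380) gave -0.54, -0.43 and -0.60 (mean -0.52 ± 0.08, adjusted p = 0.00273). Both were lower on each array, and PSAG had the lower ratio of the pair on every array.

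The PSBO, PSBP and PSBQ proteins are the extrinsic subunits that shield the oxygen-evolving cluster of photosystem II. PSBQA (AT4G21280) gave -0.87, -0.89 and -1.0 (mean -0.92 ± 0.08, adjusted p = 0.000289), a level 1.89-fold lower and the largest fall of the PSB genes. PSBP-1 (AT1G06680) gave -0.72, -0.78 and -0.71 (mean -0.74 ± 0.08, adjusted p = 0.000598), and PSBQ-2 (AT4G05180) gave -0.74, -0.58 and -0.72 (mean -0.68 ± 0.08, adjusted p = 0.000989). These genes were lower on all arrays with little spread, and PSBQA was below PSBQ-2 on each.

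The PSBO genes were less well measured. PSBO2 (AT3G50820) gave -0.30, -0.72 and -0.06 and was not called (mean -0.36 ± 0.13, adjusted p = 0.0660). It was below 0 on every array but varied over a wide range. Leaving out array 2 gave a PSBO2 mean of -0.18, and leaving out array 3 gave -0.51 and a call (adjusted p = 0.00315). That call rests mostly on variance pooled over loci, since the arrays left gave -0.30 and -0.72. PSBO2 was also called with a dye term (-0.45, adjusted p = 0.00696), which gives array 2, its lowest, as much weight as arrays 1 and 3 together. The deposited series table called it too (-0.48, adjusted p = 0.0330), but the median of all loci there was -0.15. With the ratios written by Agilent Feature Extraction PSBO2 was not called. PSBO1 (AT5G66570) had a ratio on array 3 only (-0.47), because its spots on arrays 1 and 2 were marked, and was not tested.

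The other 5 PSB genes were all lower. PSBW (AT2G30570), a small membrane subunit, gave -0.92, -0.83 and -0.91 (mean -0.89 ± 0.08, adjusted p = 0.000306). PSBS (AT1G44575), the sensor of lumen acidity in non-photochemical quenching, gave -0.82, -0.74 and -0.77 (mean -0.78 ± 0.08, adjusted p = 0.000494). Both were nearly equal across arrays.

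PSBX and PSBY are further small membrane subunits. PSBX (AT2G06520) gave -0.47, -0.45 and -0.56 (mean -0.49 ± 0.08, adjusted p = 0.00312). PSBY (AT1G67740) gave -0.27, -0.26 and -0.31 (mean -0.28 ± 0.08, adjusted p = 0.0253), the smallest called fall, and was not called without array 1 (-0.29, adjusted p = 0.134), without array 3 (-0.26, adjusted p = 0.135) or with the outlying backgrounds left as deposited (-0.27, adjusted p = 0.0771). PSBR (AT1G79040), which supports the binding of PSBP, gave -1.12, -0.05 and -1.08 (mean -0.75 ± 0.20, adjusted p = 0.0253). Array 2 gave almost no change in PSBR, and the call ended without array 1 (-0.56, adjusted p = 0.103) and with the outlying backgrounds left as deposited (-0.75, adjusted p = 0.0675).

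These genes are among the brightest on the array: 29 of the 40 lay in the brightest 5% of tested loci. Of those 29, 24 were lower and 1 was higher, with a median of -0.63. The other 965 loci of the brightest 5% had 192 lower (19.9%) and 193 higher, with a median of -0.02. When each array was only centred on its median, without the intensity-dependent normalization, those medians were -0.81 and -0.18. Under that setting the median of all 40 genes was -0.77 and every PSA and tested PSB gene was still below 0. The standard errors of the genes then rose from between 0.0756 and 0.202 to between 0.319 and 0.391, and 12 genes were called lower and 1 higher. The dye-swapped array lay outside the range of arrays 1 and 3 for 31 of the 38 genes with 3 ratios (19 above and 12 below), which happened for 77.9% of all such loci.

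Genes that act next to the photosystems were mostly lower too. For these and the lists that follow, the background was 19.9% lower and 18.6% higher among all tested loci. Of 11 genes for electron transport and ATP synthase 8 were lower and none was higher, with a median of -0.61. FNR2, a ferredoxin-NADP reductase at the stromal end of photosystem I, gave -1.21, -1.36 and -1.05 (mean -1.21 ± 0.09, adjusted p = 0.000163). The locus AT2G26500 had a mean of -0.81 ± 0.08 (adjusted p = 0.000492), the ferredoxin gene FD2 one of -0.74 ± 0.09 (adjusted p = 0.000919) and PDE334 one of -0.61 ± 0.08 (adjusted p = 0.00126). Of 12 tested genes of 13 for photosystem assembly 10 were lower and none was higher, with a median of -0.46. PPL1, a relative of PSBP, had a mean of -1.0 ± 0.09 (adjusted p = 0.000345), and HCF136, needed to assemble photosystem II, one of -0.52 ± 0.08 (adjusted p = 0.00306). PAM68 (-0.69 ± 0.11, adjusted p = 0.00333) and PSB28 (-0.47 ± 0.08, adjusted p = 0.00342) were also lower.

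Among 8 relatives of the light-harvesting proteins with roles in photoprotection 5 were lower and 1 was higher, with a median of -0.40. ELIP2, an early light-induced protein that accumulates under light stress, was the higher one and gave 0.66, 0.88 and 0.61 (mean 0.71 ± 0.09, adjusted p = 0.00114). OHP2 had a mean of -0.82 ± 0.10 (adjusted p = 0.00131), LIL3:1, which takes part in chlorophyll synthesis, one of -0.42 ± 0.08 (adjusted p = 0.00541), and SEP2 one of -0.41 ± 0.09 (adjusted p = 0.0105). ELIP2 was not called with the outlying backgrounds left as deposited (0.52, adjusted p = 0.0738), nor SEP2 without array 1 (adjusted p = 0.0611). Of 7 genes for import of light-harvesting proteins and for state transitions 2 were lower, 1 was higher and 4 were not called, with a median of -0.05. The share lower was 28.6%, against 19.9% of all tested loci, and that difference was not tested. The thylakoid kinase STN7, which phosphorylates LHCII, was higher (0.31 ± 0.08, adjusted p = 0.0233), and the kinase STN8, which phosphorylates photosystem II core proteins, was lower (-0.33 ± 0.08, adjusted p = 0.0140). CPSRP54, which carries imported light-harvesting proteins to the thylakoid, was lower at -0.26 ± 0.08 (adjusted p = 0.0443). These calls depended on single arrays and on the processing. STN7 was not called without array 1 (adjusted p = 0.0918) or array 3 (adjusted p = 0.158), in the deposited series table (0.18, adjusted p = 0.124) or with the outlying backgrounds left as deposited (0.23, adjusted p = 0.163). CPSRP54 was not called without array 1 (adjusted p = 0.238) or array 3 (adjusted p = 0.209), with Feature Extraction's ratios (adjusted p = 0.0552) or with those backgrounds (adjusted p = 0.0949). STN8 was not called without array 1 (adjusted p = 0.105) or with the mean of its probes (-0.20, adjusted p = 0.0852).

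A list that joins regulators of nuclear photosynthesis genes with plastid sigma factors, which act on chloroplast genes, gave no single direction. Of 12 regulators and plastid sigma factors 4 were lower, 2 were higher and 6 were not called, with a median of 0.11. The share lower was 33.3%, against a background of 19.9% lower and 18.6% higher, and that difference was not tested. GLK2, an activator of photosynthesis genes, gave -0.19, -0.25 and -0.45 (mean -0.30 ± 0.09, adjusted p = 0.0334). The GLK2 call ended without array 1 (adjusted p = 0.0859), without array 3 (-0.22, adjusted p = 0.230), with Feature Extraction's ratios (adjusted p = 0.0503) and with the outlying backgrounds left as deposited (adjusted p = 0.0616). Its partner GLK1 gave 0.14, 0.23 and -0.09 and was not called (mean 0.09 ± 0.09, adjusted p = 0.455), and its mean was -0.02 with median centring and -0.06 in the deposited series table. HY5, a light-signalling factor, gave 0.25, 0.48 and 0.72 (mean 0.48 ± 0.10, adjusted p = 0.0110), and its homologue HYH was also higher (0.48 ± 0.09, adjusted p = 0.00698). The GATA factor CGA1 was lower (-0.40 ± 0.08, adjusted p = 0.00654), and its relative GNC was not called (0.13 ± 0.08, adjusted p = 0.281). The sigma factors SIG4 (-0.88 ± 0.08, adjusted p = 0.000458) and SIG2 (-0.58 ± 0.08, adjusted p = 0.00146), which direct the chloroplast RNA polymerase, were lower. With the outlying backgrounds left as deposited, HY5 (0.43, adjusted p = 0.0738), HYH (0.35, adjusted p = 0.113) and CGA1 (-0.29, adjusted p = 0.118) were not called.

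Genes listed as markers of tissues in the seedling changed as well. Of 8 genes listed for leaf mesophyll 6 were lower and none was higher, with a median of -0.80. That was below the median of the light-harvesting and photosystem genes. The mesophyll list holds RBCS genes, RCA, CA1, GAPA and GAPB, which are themselves nuclear photosynthesis genes. Their fall therefore does not measure the amount of mesophyll, which was not tested. The Rubisco small-subunit genes RBCS3B (-0.89 ± 0.08, adjusted p = 0.000348) and RBCS1B (-0.86 ± 0.08, adjusted p = 0.000351), whose probes may share signal, were lower. RBCS2B was lower too (-0.74 ± 0.10, adjusted p = 0.00197), but RBCS1A was not called (-0.28 ± 0.10, adjusted p = 0.0763). The carbonic anhydrase gene CA1 (-1.44 ± 0.13, adjusted p = 0.000376) and GAPB (-0.69 ± 0.08, adjusted p = 0.000754) were also lower. Of 15 root markers 8 were lower (53.3%), 7 were not called and none was higher, with a median of -0.32. The lower ones were CASP1 to CASP5, SHR and the transporter genes NRT2.1 and AT5G43350. Among those not called, WOX5, COBL9, EXPA7 and PYK10 had means above 0, and PLT1, PLT2 and SCR had means below 0. The fall was thus not shared by all root markers. CASP5 was at least 2.24-fold lower (adjusted p = 0.000145), a bound because its IBH1-SRDX signal did not clear background, and equal here to the fitted ratio of -1.16. With the outlying backgrounds left as deposited CASP5 gave -0.73 and was not called (adjusted p = 0.0629). CASP1 had a mean of -1.06 ± 0.10 (adjusted p = 0.000500), CASP2 one of -0.59 ± 0.09 (adjusted p = 0.00229) and the nitrate transporter gene NRT2.1 one of -1.50 ± 0.20 (adjusted p = 0.00160). Of 6 tested genes of 7 for senescence and chlorophyll breakdown 1 was lower and 1 was higher, with a median of -0.02. The share lower was 16.7%, near the 19.9% of all tested loci. SAG13 was at least 4.43-fold higher (adjusted p = 0.000915), a bound because wild type was not well above background. It holds for the main processing of all 3 arrays: the fitted SAG13 log2 ratio of 2.36 was 1.88 without array 2, and 1.64 and not called with the outlying backgrounds left as deposited (adjusted p = 0.0896). SEN1 was lower (-0.68 ± 0.11, adjusted p = 0.00391), and SAG12 was not well above background in either genotype. The part of these shifts in the falls of the photosystem genes was not tested.

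**Figure D4:**
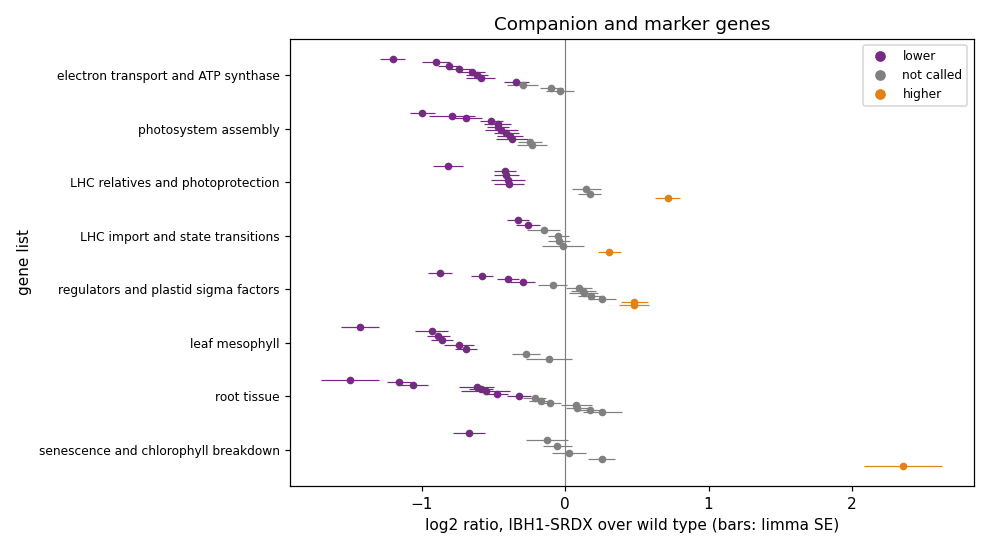
Log2 ratio of IBH1-SRDX over wild type (horizontal axis, bars give limma's standard error) of each tested gene of 8 lists (vertical axis) of companion and marker genes, coloured by call. Electron transport and photosystem assembly genes have medians of -0.61 and -0.46. The regulators and plastid sigma factors lie on both sides of 0 with a median of 0.11.

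The probe for IBH1 itself gave -0.88, -0.60 and -0.67 (mean -0.71 ± 0.09, adjusted p = 0.00118). The part of the transcript it matches is unknown here, so it does not show whether the transgene's RNA is measured and checks nothing about the labels. Between 58.8% and 63.5% of spots were well above background in a channel, no spot was saturated, and all 3 arrays shared 1 slide and 1 scan.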

How the data were processed

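In each array's deposited file, Agilent Feature Extraction 9.1.3.1 (version per the submitters' processing notes) wrote the median intensity of every spot and of its surroundings in both channels, with flags of 0 or 1. Per the file headers, the same files give a dye-normalized log10 ratio (Cy5 to Cy3) from which background had been subtracted. The table deposited for the whole series holds natural log ratios of IBH1-SRDX over wild type, with scale and sign found from the values. How its constant offset was set stays unknown.

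Here local backgrounds marked as outliers took the median of the unmarked ones, because 4 Cy3 and 5 Cy5 backgrounds on array 1 exceeded 200 units against medians of 53 to 58. Background was corrected with normexp (offset 50), and each array's ratios were then loess-normalized, giving controls weight 0. Control spots were dropped, as were 91 to 189 further spots per array that carried a non-uniformity or population outlier flag. The brightest probe stood for a locus. Log2 ratios, turned to IBH1-SRDX over wild type, were tested against 0 with limma 3.58.1 in R 4.3.3, checked on simulated data. The fit had 2 residual degrees of freedom, and the variance pooled over loci added 4.88 prior degrees of freedom. For a probe not well above background in a genotype, the bound takes, on each array, the higher of its own signal and the dimmest signal that cleared background, and is open to dye bias since dyes are not balanced. The number of arrays limits the precision.

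Gene names came from the TAIR10.1 table, which held 19769 of 19875 tested loci; its coordinates were not used. Named were all called members, every LHCB1 gene and the largest rise and fall of each class. Of each companion list, up to 4 called genes with the smallest adjusted p were named, plus GLK1, GLK2, HY5, GNC and CGA1. The remaining members were named too so that each is accounted for, and so were the other root markers, RBCS1A and RBCS2B. Members, lists and settings were chosen with earlier results of these data known. Alternatives changed the normalization, ratio, background, filter, probe rule, dye term and replicates. Giving the members weight 0 in loess and leaving marked spots in were added after seeing the data.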

Additional observations from a re-analysis of the deposited data

How the results depend on the processing

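Over 14 alternatives no called gene of the 43 changed direction, and all 12 PSA genes were called lower in each except median centring, where 3 were. Median centring gave 12 members lower and 1 higher, and 674 and 591 loci in all. Under it LHCB1.2 (-0.46) lost its call, and 17 other members did too. With outlying backgrounds left as deposited 1918 loci were lower and 1141 higher, and the deposited series table gave 6369 lower. The members' median was -0.77 with median centring, -0.53 with Feature Extraction's ratios and -0.67 in the series table, whose median over all loci was shifted by -0.15 (members relative to it -0.52). A dye term called LHCB1.3 (-0.34), LHCB7 and PSBO2, and the series table also called LHCB7 and PSBO2. All 3 genes had their lowest ratio on array 2. With the dye term array 2 weighs as much as arrays 1 and 3 together, and its departure from them no longer counts as error. The dye term itself was called at 0 loci. Of 31 named companion and marker genes called, 19 lost the call with median centring and 9 with outlying backgrounds left as deposited. Leaving out 1 array at a time gave 2491 to 4298 loci lower and 2320 to 3887 higher, with both lowest counts without array 1. It gave 24 to 29 members lower, an antenna minus subunit difference of 0.24 to 0.54, a photosystem I minus photosystem II difference of -0.31 to -0.14, LHCB1.3 from -0.42 to 0.12 and LHCB1.5 from -0.32 to 0.00298. It gave LHCB2.3 from -0.11 to 0.0459 (0.0181 without array 2). GLK1 was -0.0161 with median centring and -0.0613 in the series table. With marked spots left in LHCB1.2 was -0.83 (adjusted p = 0.0151). The cause of the other shifts was not tested. The test was paired by design, since each ratio already compares both genotypes on 1 array. No slide or scan block was fitted, since the arrays share both. Signal over background limits LHCB2.1 and LHCB2.2.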
